A study of Mus musculus with 19 samples.

Results

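The transcripts of 10 chemokine ligand genes were followed in circulating leukocytes. They were Ccl2, Ccl3, Ccl4, Ccl5, Ccl6, Ccl9, Cxcl2, Cxcl9, Cxcl10 and Cxcl16, chosen by name, and every non-control probe that the array files list under one of these names was taken. This gave 12 probes of 41174 on the array, 2 each for Ccl5 and Cxcl16 and 1 for each other gene. Of the 10 genes, 9 had a probe bright enough to be tested. The leukocytes came from whole blood of male B6 and DBA/2 mice that had been given CAWS, a water-soluble mannoprotein and beta-glucan preparation of Candida albicans, by intraperitoneal injection. There were 10 groups, 5 in each strain, taken at week 0 (right after the last injection), week 2, week 4, week 8 and week 9. Each held 2 samples, except B6 mice at week 2 and at week 9 with 1 sample each, and all of them had received CAWS, so that week 0 is an early time point and not an untreated control. Only mice that survived to a time point could be sampled, and the ages of the mice are given in the study's methods as a range for all of them. The labels call the samples biological replicates, and p values measure the spread between them. How much of this spread comes from the arrays, and whether samples of a group share RNA, was not tested.

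Chemokines are small secreted proteins that direct the movement of leukocytes through G protein-coupled receptors on those cells. CC and CXC ligands are named after the spacing of their first cysteines. Ccl3, Ccl4 and Ccl5 are made by activated macrophages, T cells and NK cells, and Ccl3 and Ccl5 bind Ccr1. Ccl2 is the main ligand of Ccr2 on monocytes. Ccl6 and Ccl9 are rodent ligands of Ccr1 that myeloid cells make. Cxcl9 and Cxcl10 are induced by interferon-gamma and bind Cxcr3 on activated T cells and NK cells, Cxcl2 draws neutrophils through Cxcr2, and Cxcl16 is a membrane-bound ligand of Cxcr6 that can be shed.

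The genes lie in clusters. On mm8, the build of the probe positions, the CC ligands are on chromosome 11, where the Ccl5 probe starts at 83341989, that of Ccl9 at 83390916, of Ccl6 at 83404690, of Ccl3 at 83464051 and of Ccl4 at 83480745, and Ccl2 (81853343) and Cxcl16 (70270473) stand apart. Cxcl2 (91980708), Cxcl9 (93398365) and Cxcl10 (93421955) are on chromosome 5. The probes are annotated to the transcripts of these genes. RefSeq promoter windows of GRCm38.p6, from 250 bases before to 50 bases after the gene start, were at hand for 6 of the 10 genes, namely Ccl3, Ccl6, Ccl9, Cxcl2, Cxcl9 and Cxcl10. The 250 bases before the start are shown for Cxcl9 and Cxcl10, the neighbouring genes that were bright only in DBA/2 mice, and for Ccl9, which rose beside them. Capitals mark letters that match a searched motif on either strand: the NF-kB motif (GGG and CC around 5 free bases), the interferon-stimulated response element ISRE (GAAA and GAAA around 2 free bases), the gamma-activated site GAS (TTCNNNGAA) or the TATA box (TATAAA).
Cxcl9 (chr5:92328080-92328329, minus strand): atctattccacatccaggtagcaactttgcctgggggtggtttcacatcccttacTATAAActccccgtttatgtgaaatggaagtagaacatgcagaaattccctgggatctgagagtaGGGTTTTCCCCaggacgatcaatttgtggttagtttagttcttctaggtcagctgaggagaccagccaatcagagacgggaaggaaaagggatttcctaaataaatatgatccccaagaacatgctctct
Cxcl10 (chr5:92348890-92349139, minus strand): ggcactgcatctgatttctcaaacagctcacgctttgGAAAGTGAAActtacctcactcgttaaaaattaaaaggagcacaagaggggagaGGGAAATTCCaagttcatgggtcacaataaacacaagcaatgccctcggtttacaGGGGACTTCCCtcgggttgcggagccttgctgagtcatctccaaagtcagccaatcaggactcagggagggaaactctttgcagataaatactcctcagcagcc
Ccl9 (chr11:83578637-83578886, minus strand): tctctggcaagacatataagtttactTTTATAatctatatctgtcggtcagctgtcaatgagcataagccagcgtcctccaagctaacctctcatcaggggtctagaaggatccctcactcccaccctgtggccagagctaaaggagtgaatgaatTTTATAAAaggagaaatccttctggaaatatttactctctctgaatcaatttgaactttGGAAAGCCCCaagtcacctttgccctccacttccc

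Cxcl10 held the only ISRE match among these 6 windows, and 3.44% of all 32851 windows hold one. NF-kB matches, some of them overlapping, were found for Cxcl2, Cxcl9, Cxcl10 and Ccl9, and 50.8% of all windows hold this loose motif. The TATA letters were found for Cxcl9 and Ccl9, against 13.6% of all windows. No window of the 6 held the GAS letters, which 8.3% of all windows hold, and Ccl3 and Ccl6 held none of the motifs. A match is a string of letters and not a measured site.

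Expression was measured on single-color arrays. From 33.9% to 51.4% of the 43379 spots of an array were well above background by the scanner software's call. Levels are given below as relative levels, the processed signal of a probe divided by the 75th percentile of the array's signals over the 11536 probes that were bright on all 19 arrays. The dim genes Cxcl9, Cxcl10, Cxcl16, Cxcl2 and Ccl2 are given by their processed signal, which is not scaled between arrays. Changes are log2 differences of group means with their standard error (SE) from limma, and a gene is said to have risen or fallen where the Benjamini-Hochberg adjusted p over all tested probes was under 0.05. One set of samples stood apart from its label: hepatocyte transcripts such as Apoa1 and Ttr were present in leukocyte RNA of B6 mice. The summed relative level of 11 hepatocyte markers was 33.4 to 34.3 in B6 mice at week 0 and 18.5 to 19.1 at week 8, and 0.937 to 2.4 in the other 8 groups, where 7 or 8 of the 11 cleared background in no sample of a group. Their part in the values of B6 mice, and in the strain differences that rest on them, was not tested. Values with B6 week 2 in place of B6 week 0 as the reference are therefore given where the call changes. For B6 mice at week 8 this reference does not take the hepatocyte transcripts out of the comparison, since the week 8 samples hold them too. The single B6 sample at week 2 stood apart in another way. Its 7 platelet markers summed to 87.4, against 242 to 243 in B6 mice at week 0 and 209 to 408 over all other samples, and all 7 were lower than at week 0 (median -1.50). Its neutrophil markers summed to 190.2, against 57.4 to 57.7. The part of this in the values against B6 week 2 was not tested.

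Ccl3, Ccl4, Ccl5, Ccl6 and Ccl9 were well above background on all 19 arrays. Cxcl16 was so in 13 of 18 samples by its brighter probe and in 0 by its other probe. Cxcl10 was well above background in 5 samples, all of DBA/2 mice (week 4 replicate 1 and both samples at week 8 and at week 9), Cxcl9 in 3, also all of DBA/2 mice (week 4 replicate 1 and both at week 8), and Cxcl2 in 2, both of B6 mice (week 4 replicate 2 and week 8 replicate 1). Ccl2, with 10 spots on each array, cleared background on no array and was not tested.

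In DBA/2 mice at week 4, all 5 of the CC ligands detected on every array rose, where 7.58% of all tested probes were called higher and 7.22% lower, together 14.8%. At week 8, 4 of these 5 rose, with 10% of all probes called higher and 14% lower, together 24%. At week 9, 2 of the 5 rose, with 13.4% of probes higher and 14.3% lower, together 27.7%. At week 2, Ccl5 and Ccl6 rose and Ccl4 fell, where 7.91% of probes were called higher and 7.82% lower, together 15.7%. For B6 mice, 1 of the 5 rose at week 2 (5.28% of probes higher, 7.74% lower, together 13%). There, 2 rose and 1 fell at week 4 (6.02% higher, 9.66% lower, together 15.7%), 2 rose and 3 fell at week 8 (11% higher, 10.2% lower, together 21.2%), and 2 rose and 2 fell at week 9 (5.48% higher, 3.86% lower, together 9.33%). The median log2 change of the 5 genes was 1.11 in DBA/2 mice at week 4 and 0.66 at week 8, and 0.20 and -0.29 in B6 mice, whereas the median over all tested probes lay between -0.18 and 0.08 in every comparison with week 0. Here and in the strain differences below, the shares are over all tested probes, which had to clear background in only 2 of 18 samples. The 5 genes were picked as bright on all 19 arrays, and a share among the 11536 probes of that kind is not given. Cxcl16, bright in 13 of 18 samples and not among the 5, passed the threshold in no comparison with week 0. Cxcl9 and Cxcl10 add to the calls in DBA/2 mice at week 4, week 8 and week 9, but they passed the filter on dim probes through those very samples, so no count with them is read against the background. With normexp background correction, the calls that held in DBA/2 mice were those of Ccl3, Ccl4, Ccl6 and Ccl9 at week 4, of Ccl6 and Ccl9 at week 8 and of Ccl9 at week 9, and in B6 mice that of Ccl6 at week 8. All other calls of the ligands by their main probes missed the threshold under it.

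**Figure D1:**
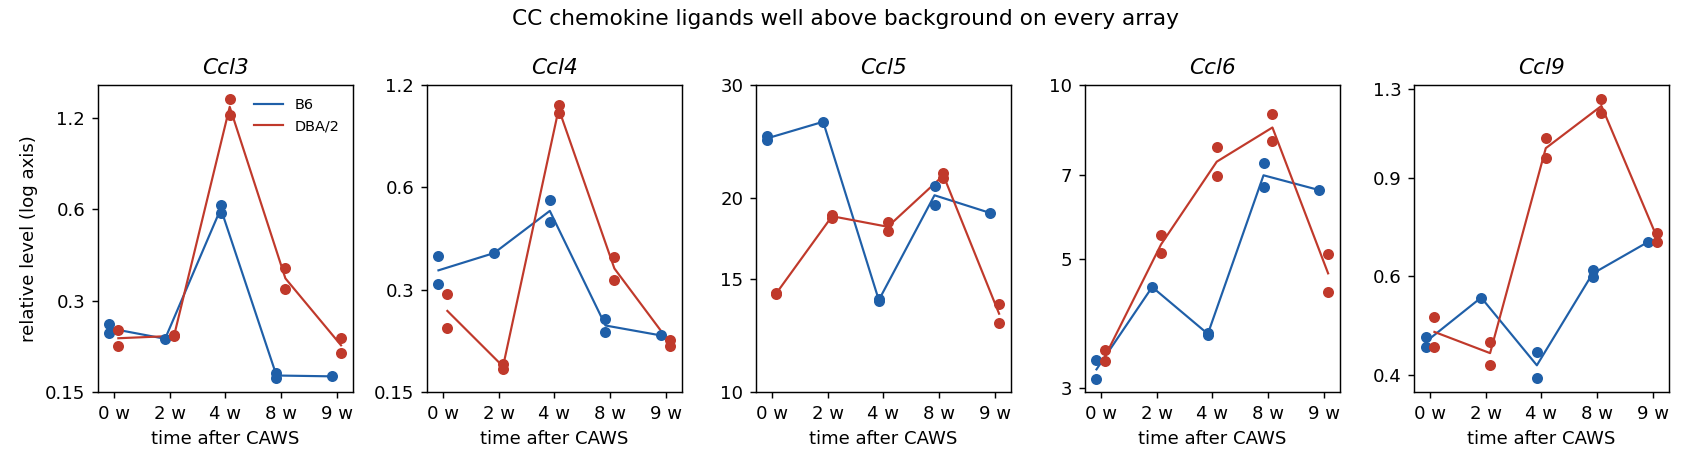
Relative level (log axis) of the 5 CC ligands in each sample, by time after CAWS in B6 mice (blue) and DBA/2 mice (red). Points are samples and lines join the geometric means. Ccl3 and Ccl4 peaked at week 4, with the DBA/2 samples of Ccl3 at 1.39 and 1.23 against 0.622 and 0.586 in B6 mice, and Ccl9 was above 0.97 only in DBA/2 mice at week 4 and week 8.

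Ccl3 and Ccl4, the macrophage inflammatory proteins 1-alpha and 1-beta, had a sharp maximum at week 4. The relative level of Ccl3 in DBA/2 mice was 0.24 and 0.212 at week 0, 0.231 and 0.229 at week 2, 1.39 and 1.23 at week 4, 0.386 and 0.328 at week 8, and 0.226 and 0.203 at week 9. In B6 mice it was 0.252 and 0.235 at week 0, 0.225 at week 2, 0.622 and 0.586 at week 4, 0.174 and 0.167 at week 8, and 0.169 at week 9. The week 4 samples were thus the highest in either strain, and those of DBA/2 mice did not overlap with any other group. Ccl3 rose 5.79-fold at week 4 in DBA/2 mice, by 2.53 on the log2 scale (SE 0.11, adjusted p = 1.84e-06), and the difference was 2.53 within each of the slides that held both groups. At week 8 it was still higher by 0.66 (SE 0.11, adjusted p = 0.00232). The rise in B6 mice was 2.48-fold at week 4 (log2 1.31, SE 0.11, adjusted p = 7.51e-05), and the gene then fell below week 0 by 0.52 at week 8 (adjusted p = 0.00937) and by 0.53 at week 9 (adjusted p = 0.0419). With B6 week 2 as the reference the rise at week 4 was 1.42 (adjusted p = 8.6e-05), while the values at week 8 and week 9, -0.40 and -0.41, missed the threshold (adjusted p = 0.059 and 0.13). The fall at week 8 was also lost without B6 week 0 replicate 1 or B6 week 8 replicate 2 (adjusted p = 0.0674 and 0.0575), and that at week 9 in 8 of 17 fits that left out 1 sample (adjusted p from 0.0575 to 0.159).

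Ccl4 followed the same course with a smaller rise. Its relative level in DBA/2 mice was 0.232 and 0.291 at week 0, 0.176 and 0.182 at week 2, 1.05 and 0.995 at week 4, 0.32 and 0.376 at week 8, and 0.205 and 0.214 at week 9. The B6 samples stood at 0.311 and 0.376 at week 0, 0.385 at week 2, 0.475 and 0.552 at week 4, 0.247 and 0.225 at week 8, and 0.22 at week 9. The lowest week 4 sample of DBA/2 mice lay above every other sample of the gene. Ccl4 rose 3.92-fold in DBA/2 mice at week 4 (log2 1.97, SE 0.14, adjusted p = 2.26e-05) and 1.5-fold in B6 mice (log2 0.58, SE 0.14, adjusted p = 0.0233). It fell by 0.54 in DBA/2 mice at week 2 (adjusted p = 0.0306) and by 0.54 in B6 mice at week 8 (adjusted p = 0.0251). The value of 0.41 in DBA/2 mice at week 8 (adjusted p = 0.0642) and that of -0.64 in B6 mice at week 9 (adjusted p = 0.0527) missed the threshold. With slide as a random block both passed it, at 0.41 (adjusted p = 0.0125) and -0.69 (adjusted p = 0.00736), and the latter also did against B6 week 2, at -0.81 (adjusted p = 0.0299). The fall at week 2 was lost when either DBA/2 sample at week 2 or replicate 2 at week 0 was left out (adjusted p from 0.113 to 0.192), and the rise of B6 mice at week 4 was lost against B6 week 2 (0.41, adjusted p = 0.156) and without B6 week 0 replicate 1 or B6 week 4 replicate 2 (adjusted p = 0.159 and 0.146). The fall of B6 mice at week 8 was lost without either B6 sample at week 8 or B6 week 0 replicate 2 (adjusted p from 0.0586 to 0.158).

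Ccl5 (RANTES), a product of NK cells and memory T cells as well as of platelets and macrophages, moved in opposite directions in the 2 strains at week 4 and week 8. The relative level of its main probe was 14.3 and 14.2 in DBA/2 mice at week 0, 18.9 and 18.6 at week 2, 18.4 and 17.8 at week 4, 21.9 and 21.5 at week 8, and 13.7 and 12.8 at week 9. For B6 mice the values were 24.6 and 25.0 at week 0, 26.3 at week 2, 13.8 and 14.0 at week 4, 19.6 and 20.9 at week 8, and 19 at week 9. Replicates differed little, and the strains crossed. B6 mice were higher at week 0, week 2 and week 9, and DBA/2 mice were higher at week 4 and week 8. Of these weeks, only week 0 was tested between the strains. The 26.3 came from the B6 sample with the low platelet markers, whose part in it was not tested. In DBA/2 mice Ccl5 rose by 0.40 at week 2 (SE 0.07, adjusted p = 0.00499), by 0.34 at week 4 (adjusted p = 0.0102) and by 0.61 at week 8 (adjusted p = 0.000227). In the other strain it fell by 0.83 at week 4 (SE 0.07, adjusted p = 6.74e-05), by 0.29 at week 8 (adjusted p = 0.0152) and by 0.39 at week 9 (adjusted p = 0.0219). The values of B6 mice at week 2 and of DBA/2 mice at week 9 missed the threshold. At week 0 Ccl5 was 1.74-fold lower in DBA/2 than in B6 mice (log2 -0.80, SE 0.07, adjusted p = 2.59e-05). The rise at week 4 was lost without DBA/2 week 4 replicate 1 or without either DBA/2 sample at week 0 (adjusted p from 0.0541 to 0.0588). In B6 mice, the fall at week 8 was lost without B6 week 8 replicate 1 or either sample at week 0 (adjusted p from 0.065 to 0.0993), and that at week 9 without either sample at week 0 (adjusted p = 0.0749 and 0.085).

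The second Ccl5 probe gave 0.33 in DBA/2 mice at week 4 (adjusted p = 0.0487), -0.85 in B6 mice at week 4 (adjusted p = 0.000474) and -0.84 between the strains at week 0 (adjusted p = 0.000156). Its values in B6 mice at week 8 and week 9, -0.26 and -0.38, missed the threshold (adjusted p = 0.0881 and 0.0823). Markers of NK and cytotoxic cells moved beside Ccl5 in some comparisons and not in others. Their summed relative level over 10 genes was 9.49 to 9.5 in B6 mice at week 0 and 5.3 to 5.39 at week 4, and 5.38 to 5.55 in DBA/2 mice at week 0 and 7.86 to 7.93 at week 8. Of these 10 genes, 8 fell in B6 mice at week 4 and 7 rose in DBA/2 mice at week 8. In DBA/2 mice at week 2, where Ccl5 rose, their sum was 5.61 to 5.92 and 1 of the 10 rose (median 0.09). All 7 platelet markers rose there (median 0.68), but 6 of these 7 also rose in B6 mice at week 4, where Ccl5 fell. In whole leukocyte RNA, fewer cells of a type and less RNA per cell cannot be told apart, and the part of these markers in the Ccl5 values was not tested.

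Ccl6 and Ccl9 were highest at week 8, not week 4, in DBA/2 mice. The relative level of Ccl6 in DBA/2 mice was 3.48 and 3.34 at week 0, 5.5 and 5.12 at week 2, 7.81 and 6.95 at week 4, 8.91 and 8.0 at week 8, and 5.1 and 4.38 at week 9. The values of B6 mice were 3.35 and 3.11 at week 0, 4.48 at week 2, 3.7 and 3.74 at week 4, 7.33 and 6.65 at week 8, and 6.58 at week 9. Every later sample was thus above both week 0 samples of its strain. In DBA/2 mice the gene rose at each week, by 0.64 at week 2 (SE 0.11, adjusted p = 0.00401), 1.11 at week 4 (adjusted p = 0.000145), 1.31 at week 8 (adjusted p = 2.8e-05) and 0.47 at week 9 (adjusted p = 0.00971). In B6 mice it rose by 0.47 at week 2 (SE 0.13, adjusted p = 0.0438), by 1.11 at week 8 (adjusted p = 9.33e-05) and by 1.03 at week 9 (adjusted p = 0.0012), and the value at week 4 was 0.20 (adjusted p = 0.262). Against B6 week 2, the rises at week 8 and week 9 were 0.64 and 0.56 (adjusted p = 0.00558 and 0.0424), and the value at week 4 turned to -0.27 (adjusted p = 0.221). The rise in DBA/2 mice at week 9 was lost without replicate 1 at week 9 or replicate 2 at week 0 (adjusted p = 0.0509 and 0.0576), and that in B6 mice at week 2 was lost in 12 of 17 fits that left out 1 sample (adjusted p from 0.0509 to 0.169).

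Ccl9 rose in DBA/2 mice from week 4 on. Its relative level there was 0.507 and 0.45 at week 0, 0.459 and 0.417 at week 2, 1.06 and 0.976 at week 4, 1.25 and 1.18 at week 8, and 0.717 and 0.691 at week 9. In B6 mice it was 0.467 and 0.449 at week 0, 0.55 at week 2, 0.439 and 0.395 at week 4, 0.598 and 0.616 at week 8, and 0.692 at week 9. The DBA/2 samples at week 4 and week 8 lay above all others, and the strains met again at week 9. Ccl9 rose 2.13-fold at week 4 (log2 1.09, SE 0.10, adjusted p = 7.8e-05), 2.54-fold at week 8 (log2 1.34, SE 0.10, adjusted p = 1.1e-05) and 1.47-fold at week 9 (log2 0.56, adjusted p = 0.00213) in DBA/2 mice. Ccl9 rose in B6 mice by 0.41 at week 8 (SE 0.10, adjusted p = 0.0144) and by 0.60 at week 9 (SE 0.12, adjusted p = 0.012), and at week 4 it was at -0.14 (adjusted p = 0.413). Against B6 week 2 the values at week 8 and week 9 were 0.14 and 0.33 (adjusted p = 0.441 and 0.154), and that at week 4 passed the threshold at -0.40 (adjusted p = 0.0459). The rise of B6 mice at week 8 was lost without any 1 of the B6 samples at week 0 or week 8 (adjusted p from 0.0528 to 0.0806), and that at week 9 without B6 week 0 replicate 2 (adjusted p = 0.0576).

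Marker lists of myeloid cells followed Ccl6 and Ccl9 at some weeks and not at others. The summed relative level of 9 monocyte markers such as Csf1r and Ccr2 was 8.65 to 9.15 in DBA/2 mice at week 0, 13 to 14.2 at week 2, 18.3 to 19.5 at week 4, 16.5 to 17.9 at week 8 and 19.6 to 20.8 at week 9. It was thus highest at week 9, where Ccl6 and Ccl9 stood below their week 8 levels. Of the 9 genes, 2 rose and 1 fell at week 2, and 8 rose at each later week. For B6 mice the sum was 6.64 to 7.03 at week 0, 4.81 at week 2, 10.6 in either sample at week 4, 18.7 to 19.4 at week 8 and 16.1 at week 9. There, 4 rose and 1 fell at week 2, 2 rose and 4 fell at week 4, 7 rose at week 8 and 6 at week 9.

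The 11 neutrophil markers, such as S100a8 and Mmp8, summed in DBA/2 mice to 107 to 108.1 at week 0, 282 to 292 at week 2, 336 to 362 at week 4, 706 to 787 at week 8 and 266 to 325 at week 9. The sums of B6 mice were 57.4 to 57.7, 190.2, 141 to 151, 432 to 434 and 225 at these weeks. In every week of either strain 10 or 11 of the 11 rose, also in DBA/2 mice at week 2 and B6 mice at week 4, where the values of Ccl9 were -0.13 and -0.14. Markers of tissue macrophages, a list that holds C1qa and Marco, went with the ligands at week 4 in DBA/2 mice only. In B6 mice most of them fell, while Ccl3 and Ccl4 rose there, Ccl5 fell and Ccl6 and Ccl9 missed the threshold. Of 8 tested, 5 rose in DBA/2 mice (median 1.42) and 1 rose and 5 fell in B6 mice (median -2.31), and the change differed between the strains for 6 of them, each toward DBA/2 mice (median 3.05). The summed level of the 10 such genes with a probe was 2.12 to 3.1 in DBA/2 mice at week 0 and 4.48 to 5.26 at week 4, and 2.61 to 2.92 and 1.57 to 1.71 in B6 mice. The B6 samples at week 0 are those with hepatocyte transcripts, and the part of liver RNA in this fall was not tested. Nor was the part of monocytes, neutrophils or tissue macrophages in the chemokine values.

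**Figure D2:**
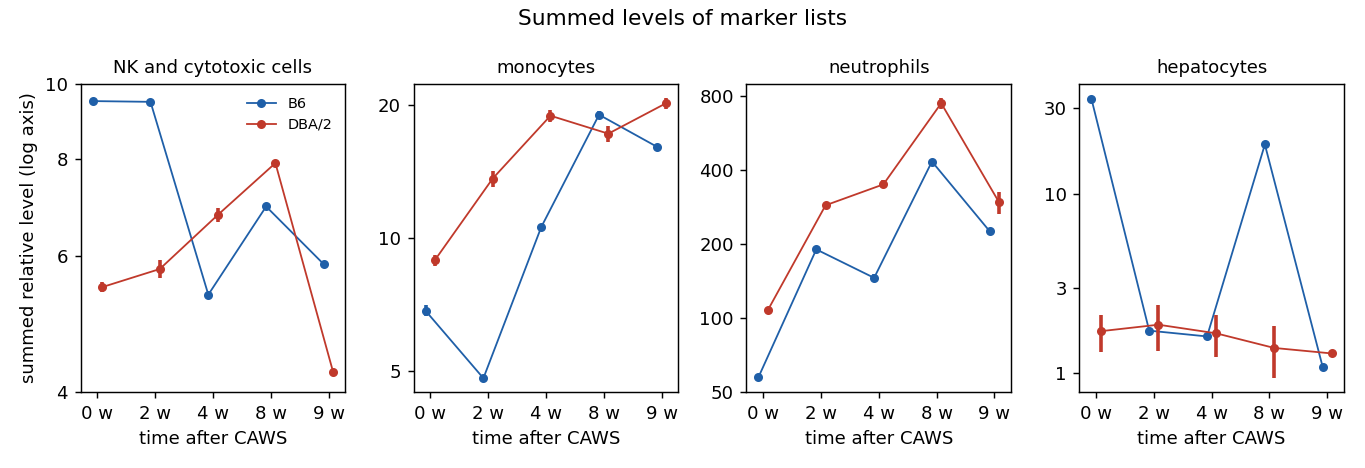
Summed relative level (log axis) of the marker lists of NK and cytotoxic cells, monocytes, neutrophils and hepatocytes, by time after CAWS in B6 mice (blue) and DBA/2 mice (red). Bars span the samples of a group and points are their midpoints. The hepatocyte markers stood at 33.4 to 34.3 in B6 mice at week 0 and at 18.5 to 19.1 at week 8, and at 0.937 to 2.4 elsewhere.

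The interferon-inducible ligands Cxcl9 and Cxcl10 were bright only in DBA/2 mice, and late. The processed signal of Cxcl9 in DBA/2 mice was 3.27 and 4.29 at week 0, 5.08 and 2.62 at week 2, 12.2 and 9.81 at week 4, 35.0 and 23.6 at week 8, and 4.74 and 6.9 at week 9. Among the 8 samples of B6 mice it ranged from 1.93 to 9.9. Only the 12.2 at week 4 and the pair at week 8 were well above background. Cxcl9 and Cxcl10 passed the filter on dim probes only through DBA/2 samples in which they were high. Their adjusted p values are therefore given as description and are not read as support for a rise. At week 8 Cxcl9 was at least 1.96-fold higher than at week 0 in DBA/2 mice (adjusted p = 5.39e-05) by a bound. It sets the dim week 0 samples at the lowest signal called for any probe of the array, or at their own signal if higher. This bound, like the others given here, is not strict, since the call does not follow the signal alone. In B6 week 8 replicate 1, 13.1 was called for Cxcl2 and 13.5 was not for Cxcl10. With normexp background correction the value of Cxcl9 at week 8 was 0.59 on the log2 scale, below its bound, and the call was lost. At week 4 Cxcl9 also passed the test (fitted log2 1.53, adjusted p = 0.00618), but the bound gives no fold. The gene also passed it in DBA/2 mice at week 9 (adjusted p = 0.0225), in B6 mice at week 4 (adjusted p = 0.0357) and between the strains at week 0 (adjusted p = 0.0117), but there both groups were too dim to call and no fold is given.

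Cxcl10 had a processed signal of 3.91 and 5.17 in DBA/2 mice at week 0, 2.46 and 3.5 at week 2, 13 and 14.4 at week 4, 45.5 and 51.8 at week 8, and 20.7 and 18.7 at week 9. Across B6 mice it ranged from 3.65 to 13.5 and was not well above background in any sample. The 4 DBA/2 samples at week 8 and week 9 thus lay above every other sample. By relative level, B6 week 4 replicate 1 (0.0386, not well above background) lay above both DBA/2 samples at week 4 (0.0267 and 0.03). Cxcl10 was at least 3.32-fold higher at week 8 (adjusted p = 6.51e-05), and for week 9 the bound was 1.62-fold (adjusted p = 0.000523). With normexp background correction both calls were lost: the value at week 8 was 0.63 on the log2 scale (adjusted p = 1), below the bound, and that at week 9 was 1.37 (adjusted p = 0.0666). The week 4 value passed the test (fitted log2 1.59, adjusted p = 0.0124) with no fold from the bound. At week 4 the calls of both genes were lost without DBA/2 week 0 replicate 1 (adjusted p = 0.0521 for Cxcl9 and 0.0858 for Cxcl10), and that of Cxcl10 without DBA/2 week 4 replicate 2 (adjusted p = 0.078).

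**Figure D3:**
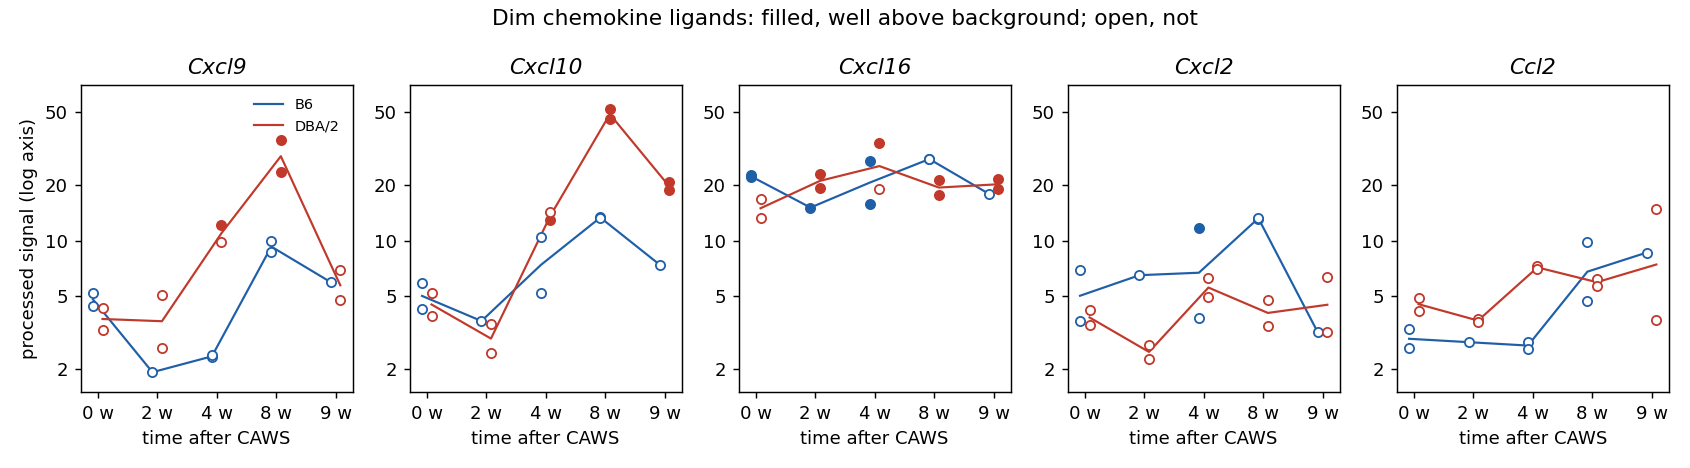
Processed signal (log axis), not scaled between arrays, of Cxcl9, Cxcl10, Cxcl16, Cxcl2 and Ccl2 in each sample, by time after CAWS in B6 mice (blue) and DBA/2 mice (red). Filled points were well above background, open points were not, and lines join geometric means. Cxcl10 reached 45.5 and 51.8 in DBA/2 mice at week 8, whereas Ccl2 had no filled point.

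Cxcl16 differed between the strains at week 0 and passed the threshold at no later week. Its processed signal was 22.1 and 22.6 in B6 mice at week 0, 15.1 at week 2, 27.1 and 15.7 at week 4, 27.6 and 27.7 at week 8, and 17.9 at week 9. In DBA/2 mice it was 16.9 and 13.3 at week 0, 19.3 and 23.0 at week 2, 33.7 and 19.1 at week 4, 17.6 and 21.4 at week 8, and 21.5 and 19 at week 9. The 22.6 of B6 mice is the mean of 2 arrays of 1 RNA. These read 30.7 and 14.5, the latter not well above background. Scaled between arrays, the relative level in B6 mice was 0.0807 and 0.079 at week 0 and lower at week 8, at 0.0494 and 0.0517. The DBA/2 samples at week 0 were not well above background, and the gene was there at least 2.14-fold lower than in B6 mice (adjusted p = 0.01), a call lost without DBA/2 week 0 replicate 2 (adjusted p = 0.0682). Of the 5 CC ligands detected on every array, 1, Ccl5, passed the test in this comparison. The B6 samples of this comparison are those with hepatocyte transcripts, no slide held week 0 samples of both strains, and a sequence difference under a probe between the strains was not tested. At week 0, 15.4% of all tested probes were called lower in DBA/2 mice and 17.2% higher, together 32.7%.

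Cxcl2 and Ccl2 stayed at the edge of detection. The signal of Cxcl2 ranged from 2.26 to 13.3 and passed none of the tests here, though it did between the strains at week 0 with the replicate number as a block or without either B6 sample at week 4, where both groups were too dim to call, and in B6 mice at week 8 without any scaling of the arrays. The signal of Ccl2 ranged from 2.57 to 14.9 without a sample well above background. For Ccl2, the highest value came from DBA/2 week 9 replicate 2, the array with the most spots marked as outliers (1187, against 64 to 180 on the others).

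The change from week 0 differed between the strains for most of these genes, always toward DBA/2 mice among those past the threshold. At week 4 all 5 CC ligands detected on every array rose more, or fell less, in DBA/2 mice, where 7.37% of all tested probes were called in that direction and 4.48% in the other, together 11.8%. The strain difference was 1.22 for Ccl3 (SE 0.16, adjusted p = 0.00101), 1.39 for Ccl4 (SE 0.20, adjusted p = 0.00199), 1.18 for Ccl5 (SE 0.10, adjusted p = 7.68e-05), 0.91 for Ccl6 (SE 0.15, adjusted p = 0.00421) and 1.23 for Ccl9 (SE 0.13, adjusted p = 0.000386). For Ccl5 the difference joins a rise in DBA/2 mice with a fall in B6 mice, while Ccl3 and Ccl4 rose in either strain. At week 8, 4 of the 5 differed (7.19% of probes were called in that direction and 10.3% in the other, together 17.5%): Ccl3 by 1.17 (SE 0.16, adjusted p = 0.00108), Ccl4 by 0.95 (adjusted p = 0.0108), Ccl5 by 0.90 (adjusted p = 0.000413) and Ccl9 by 0.94 (adjusted p = 0.00157). Ccl6, which rose in either strain at week 8, had a difference of 0.20 (SE 0.15, adjusted p = 0.454).

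Against B6 week 2 these 9 differences of the week 4 and week 8 comparisons stayed past the threshold, from 0.99 for Ccl5 at week 8 to 1.56 for Ccl4 at week 4, and that of Ccl6 at week 8 became 0.67 (adjusted p = 0.0194). For DBA/2 mice week 0 stayed the reference here. These values thus set a change from week 0 in DBA/2 mice against a change from week 2 in B6 mice. They also rest on the single B6 sample at week 2, so they are no test of the change over like intervals. The difference of Cxcl10 at week 8 passed the test (adjusted p = 0.00187), as did those of Cxcl9 at week 4 and week 8 (adjusted p = 0.00289 and 0.000826), with groups too dim for a fold, and against B6 week 2 that of Cxcl9 at week 4 was lost (adjusted p = 0.0746). Both genes passed the filter on dim probes through the DBA/2 samples in which they were high, so these p values are not read as support. At week 8 the B6 week 2 reference leaves hepatocyte transcripts on 1 side of the B6 change. Their markers summed to 18.5 to 19.1 in B6 mice at week 8 and to 1.73 at week 2, so this reference cannot answer for their part there. The week 8 differences depended on the scaling of the arrays. Without any scaling the median probe moved by 0.98 in B6 mice from week 0 to week 8, and the differences of Ccl3, Ccl4, Ccl5 and Ccl9 turned to between -0.29 and -0.015. With normexp background correction, 0 of the members passed the test in either strain difference (limma). Under it their differences at week 4 were 1.17 for Ccl3, 1.13 for Ccl4, 1.19 for Ccl5, 0.94 for Ccl6 and 0.98 for Ccl9, and the number of all probes called fell to 109.

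**Figure D4:**
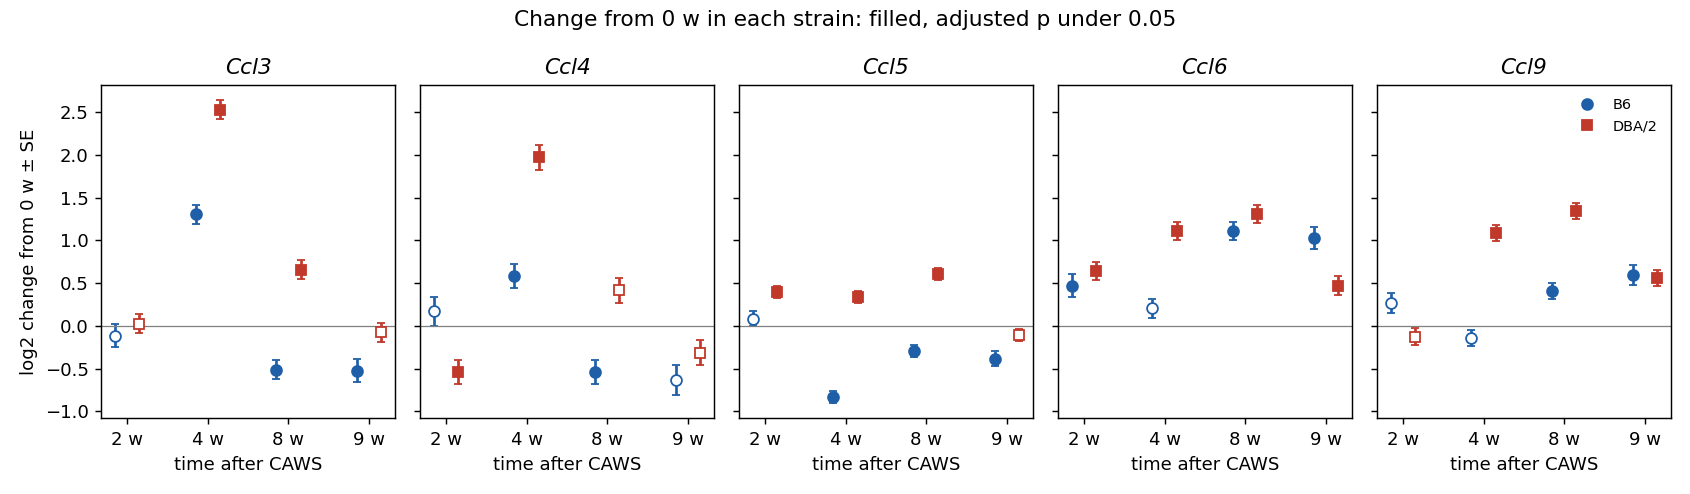
Change from week 0 on the log2 scale, with its standard error, of the 5 CC ligands in B6 mice (blue circles) and DBA/2 mice (red squares). Filled symbols had an adjusted p under 0.05. At week 4 the DBA/2 symbols lie above those of B6 mice for all 5 genes, by 0.91 for Ccl6 to 1.39 for Ccl4.

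Receptors of these ligands were also on the array. Of these, Ccr2 is also in the monocyte list above and Il8rb in the neutrophil list, so their values are not separate from those lists. The part of cell numbers in the receptor values was not tested. In DBA/2 mice at week 4, Ccr2 rose by 1.41, Il8rb (the gene of Cxcr2) by 1.86, Cxcr3 by 1.31 and Cxcr6 by 1.97. Ccr1 and Ccr3 had values of 0.81 (SE 1.13) and 0.17 (adjusted p = 0.752 and 0.658). In B6 mice at week 4, Il8rb rose by 1.21, whereas Cxcr3 and Cxcr6 fell by 1.3 and 1.62, and Ccr2 had a value of -0.18 (adjusted p = 0.178). The strain difference at week 4 was past the threshold for Ccr2 (1.59), Il8rb (0.65), Cxcr3 (2.61) and Cxcr6 (3.59). By week 8, Ccr2 (1.86), Il8rb (2.25) and Cxcr6 (0.48) had risen in DBA/2 mice. Ccr2 (1.56) and Il8rb (2.52) had also risen in B6 mice, where Ccr3 and Cxcr6 fell by 0.61 and 0.43.

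Among 13 other chemokine ligands that could be tested, 3 rose and 0 fell in DBA/2 mice at week 4, namely Ccl24 (an eosinophil attractant), Xcl1 (a product of NK cells and activated T cells, by 1.72) and Ppbp (a platelet chemokine, by 0.43). Ccl24 fell in B6 mice at every later week, from a B6 week 0 level that was itself above the dim DBA/2 level. The median change of the 13 was -0.05 in DBA/2 mice at week 4. In that comparison, 7.58% of all tested probes were called higher and 7.22% lower. Of 12 further chemokine receptors, 1 rose and 4 fell in DBA/2 mice at week 4, with Ccrl2 higher by 1.65.

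Interferon-gamma and its targets, without chemokines, were followed as a pathway known to induce Cxcl9 and Cxcl10. Its part in the values of these ligands here was not tested. Of 13 tested genes, 11 rose and 1 fell in DBA/2 mice at each week from week 4 on, with medians of 0.43, 1.14 and 0.60. Of all tested probes, 7.58%, 10% and 13.4% were called higher at these weeks, and 7.22%, 14% and 14.3% lower. Ifng itself rose by 1.79 at week 4, 1.49 at week 8 and 0.81 at week 9, and the guanylate-binding protein gene Gbp2 rose by 1.88, 3.99 and 2.09. The gene that fell was Ciita, the regulator of MHC class II genes. Gbp2, like Cxcl9 and Cxcl10, was highest at week 8, whereas Ifng had its largest value at week 4. In B6 mice, 0 rose and 6 fell at week 4, and 3 rose and 2 fell at week 8. The shares of all tested probes there were 6.02% higher and 9.66% lower at week 4, and 11% higher and 10.2% lower at week 8. Of 10 NF-kB and early response genes, 7 rose in DBA/2 mice at week 4, among them Fos by 3.30, Il1b by 2.52, Jun by 1.51 and Egr1 by 1.48, and 6 rose in B6 mice, with Fos at 3.36. For these the strain difference at week 4 was past the threshold for 2 of 10, and for 11.8% of all tested probes.

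The genes whose profile over the 18 samples was most like that of a ligand were ranked by the root mean square difference of log2 profiles, each centred on its mean, among 21964 probes. For Ccl3 these were Rgs1 (0.37), Ccl4 (0.38) and Il6 (0.55), and for Ccl4 they were Ccl3 (0.38), Rgs1 (0.48) and Nr4a1 (0.51). Rgs1 and Nr4a1 are known as activation-induced genes of leukocytes. For Ccl5 they were Nkg7 (0.17), a granule protein gene of NK and cytotoxic T cells, S1pr5 (0.18), a sphingosine phosphate receptor of NK cells, and Akr1b3 (0.20). For Ccl6 they were Pmaip1 (0.13), Dhrs7 (0.15) and Lcp1 (0.16), and for Ccl9 Ctsc (0.22), Rnf34 (0.22) and Tlr7 (0.23). The dim genes had looser matches: Anxa3 (0.44), Tmem38b (0.47) and Gatm (0.48) for Cxcl9, and Ms4a6c (0.61), Aif1 (0.65) and Spon1 (0.65) for Cxcl10. Ogdh (0.28), Med18 (0.28) and Tas2r140 (0.29) were nearest to Cxcl16. Ccl3 and Ccl4 were the only members that appear in each other's list.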

How the data were processed

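RNA of leukocytes was labelled with Cy3 by the authors and hybridized to Agilent Whole Mouse Genome 4x44K arrays, 1 RNA per array. The images were extracted with Feature Extraction 9.5.3.1, by the version recorded in the scanner output. The study's methods name another version number. The deposited files hold the processed signal of each spot, an intensity that the software has corrected for background, and calls for outliers and for signals well above background. The authors' value table holds the same intensity averaged over spots, not scaled between arrays.

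From these, 19 arrays of 18 RNA samples were used (B6 week 0 replicate 2 lay on 2 arrays, which were averaged). Control and outlier spots were left out, saturated spots kept, and spots of a probe averaged. log2 signals were scaled by each array's 75th percentile over 11536 bright probes. Probes that cleared the scanner's background call in 2 or more of the 18 samples (22939) went into limma 3.58.1 (R 4.3.3), with a mean for each group, 8 residual degrees of freedom and a prior of 1.37, and adjusted by Benjamini-Hochberg (threshold 0.05). For groups of 1 sample the fit takes the spread of the other groups. If a probe was too dim in every sample of a group, a fold is a bound. The number of arrays limits the precision. Replicate 1 and replicate 2 samples were scanned on different days and lay on 6 slides. The same-numbered samples of 28 pairs of groups correlated from -0.01 to 0.45 in their deviations, over 0.1 in 12, so that the number was not taken to pair samples.

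The members, lists and tests were chosen with earlier results of these data known. All 10 members are named, each by its brightest probe over the 18 samples, with values in every sample where it was called. One withheld item is not reported here, nor are counts of the list that holds it. The fit was tested on simulated data. Alternatives were normexp background correction (offset 50), quantile normalization, the percentile over all probes, the unscaled value table, other filters on dim probes, outlier spots kept, blocking on replicate number, blocking on slide, only 1 of the arrays of B6 week 0 replicate 2, and leaving out each sample. B6 week 2 as reference and the slide as a random block were chosen after seeing the data. Tables used pandas 2.3.3 and numpy 2.4.6 under Python 3.11.15, and figures matplotlib 3.10.9.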

Additional observations from a re-analysis of the deposited data

Results flagged for a closer look

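The change from week 0 differed between DBA/2 and B6 mice by limma's test of the difference itself for several ligands, each toward DBA/2 mice, where 11.8% of all probes were called in either direction at week 4 and 17.5% at week 8. At week 4 these were Ccl3 (1.22 on the log2 scale), Ccl4 (1.39), Ccl5 (1.18), Ccl6 (0.91), Ccl9 (1.23) and Cxcl9 (fitted 2.57). At week 8 they were Ccl3 (1.17), Ccl4 (0.95), Ccl5 (0.90), Ccl9 (0.94), Cxcl9 (fitted 3.14) and Cxcl10 (fitted 3.21). The fitted values of Cxcl9 and Cxcl10 rest on groups too dim to call and are no bounds, and both genes passed the filter on dim probes through the DBA/2 samples in which they were high. The B6 samples at week 0 and week 8 held hepatocyte transcripts, and their part in these differences was not tested. No group held enough samples to look for a single sample far from the others.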

How the results depend on the processing

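The directions of the rises of Ccl3, Ccl4, Ccl6 and Ccl9 in DBA/2 mice at week 4, and their side of the threshold, held under every alternative run. The numbers of ligands in this section count the members tested in a setting, also Cxcl9 and Cxcl10, which passed the main filter through DBA/2 samples in which they were high. The share of all probes called in each setting is not set beside them. They show only how the calls moved and are not read as a result about the ligands. With normexp background correction the number of ligands past the threshold was 0, 4, 2 and 1 in DBA/2 mice for the 4 weeks in order, 0, 0, 1 and 0 in B6 mice, and 0 in each strain difference and between the strains at week 0. It also turned Ccl3 and Ccl4 in DBA/2 mice at week 9 to 0.53 and 0.43, Cxcl16 in B6 mice at week 4 to 0.073, and Ccl9 between the strains at week 0 to -0.078. It moves the median of all probes, by 0.78 in DBA/2 mice at week 9. Without a filter on dim probes the number was 1 in DBA/2 mice at week 2 and 2 at week 9, and 0, 2, 1 and 1 in B6 mice for the weeks in order, since more probes share the adjustment. Quantile normalization gave 1 in DBA/2 mice at week 2 and a filter at 9 samples 2 at week 9.

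With the deposited value table without scaling, the number was 0 in B6 mice at week 2, 8 at week 8 and 2 at week 9, and 3 for the strain difference at week 8. Its values were -0.23 for Ccl3 in DBA/2 mice at week 2, -0.062 for Ccl5 in B6 mice at week 2, 0.50, 0.48, 0.73 and 0.36 for Ccl3, Ccl4, Ccl5 and Cxcl16 in B6 mice at week 8, and 0.073 for Ccl5 at week 9. For the strain difference at week 8 they were -0.015, -0.23, -0.29, -0.99 and -0.25 for Ccl3, Ccl4, Ccl5, Ccl6 and Ccl9, and between the strains at week 0 0.71, 0.43 and 0.023 for Ccl3, Ccl4 and Ccl5. The median of all probes moved with it by -1.26 in the strain difference at week 8 and by 0.89 between the strains at week 0.

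In B6 mice at week 2 the number was 0 with the percentile over all probes or the second array of B6 week 0 replicate 2, and 2 with slide as a random block. Cxcl16 in B6 mice at week 4 turned to 0.0091 with that percentile, 0.13 with that array, 0.078 with slide as a block and 0.27 against B6 week 2, where Ccl6 was -0.27. The replicate block gave 5 between the strains at week 0 (Ccl4, Ccl5, Cxcl2, Cxcl9 and Cxcl16), as did slide as a random block (Ccl4, Ccl5, Cxcl9, Cxcl10 and Cxcl16), and it brought Ccl4 past the threshold in DBA/2 mice at week 8 (0.41) and in B6 mice at week 9 (-0.70), and lost no call. No fit with slide as a fixed block could be had for DBA/2 mice at week 9 or for the strains at week 0, as no slide links these groups, so slide and group cannot be told apart there.

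When single samples were left out, the number ranged in DBA/2 mice from 2 to 3 at week 2, 4 to 7 at week 4, 6 to 7 at week 8 and 3 to 5 at week 9, in B6 mice from 0 to 1, 2 to 4, 2 to 5 and 1 to 5, and from 6 to 7 and 6 to 6 in the strain differences at week 4 and week 8 and 2 to 5 at week 0. The 4 in DBA/2 mice at week 4 came without DBA/2 week 0 replicate 1. Leaving out any B6 sample at week 0 or week 8 brought the number in B6 mice at week 8 to 2, leaving out B6 week 0 replicate 1 or 2 brought that at week 9 to 2 or 1, leaving out B6 week 0 replicate 1 or B6 week 4 replicate 2 brought that at week 4 to 2, and that at week 2 was 0 without either sample of B6 week 0, B6 week 4, B6 week 8, DBA/2 week 0 or DBA/2 week 8, and the 5 at week 0 came without either B6 sample at week 4. Ccl3 ranged from -0.063 to 0.11 in DBA/2 mice at week 2 and from -0.17 to 0.012 at week 9, Cxcl16 in B6 mice at week 4 from -0.52 to 0.33, and Ccl9 between the strains at week 0 from -0.027 to 0.15.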
